A study of Mus musculus with 7 samples.

Results

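The Sp family of transcription factors was examined in myoblasts of mice without Hmga2 and of wild type mice. Its members were taken by name, Sp1 to Sp7, and every probe set that the platform annotation pairs with one of them was used, whether or not the probe sets of a gene agreed. In all, 12 of 45037 probe sets belonged to 6 of the 7 genes, and none of the 12 was shared with another gene. Sp2 is not paired with a probe set in that annotation and was not analysed here. The family was chosen by an earlier result of these arrays, in which the brightest Sp6 probe set was among the few probe sets that passed between the genotypes. The values of Hmga2 KO against wild type are therefore given for the members as a description, with no test.

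Myoblasts are the dividing precursors of skeletal muscle fibres, and Hmga2 is an architectural factor of chromatin with AT-hooks. Total RNA was hybridised to 7 Affymetrix mouse arrays, 1 per sample, as biotin-labelled cRNA. The Hmga2 KO group held 4 samples of HMGA2 -/- myoblasts, with males as replicates 1 and 3 and females as replicates 2 and 4, and the wild type group held 3 samples, all female. All were C57BL/6 and untreated. By their labels they are biological replicates. No age, culture medium or deleted part of Hmga2 is stated in the sources used here. Sex thus differs in part with genotype, and for named genes the difference within the 5 female samples is given where it departs by over 0.2 (log2) from that in all samples.

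Sp factors share a C-terminal run of C2H2 zinc fingers that binds GC boxes and related GT boxes, and they differ in the rest of the protein. Sp1, Sp3 and Sp4 carry glutamine-rich regions and are found in many cell types, with Sp4 best known from neurons. Sp5 to Sp7 are shorter and more restricted: Sp5 is a target of Wnt signalling, Sp6 (epiprofin) is needed in the mouse for teeth, skin and limb epithelium, and Sp7 (osterix) is needed for bone formation. In muscle, Sp1 is known as a partner of MyoD at the cardiac actin promoter.

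The GC box is also found in promoters of the family itself. RefSeq promoter windows of GRCm38.p6, which run from 250 bases before to 50 bases after an annotated start, were matched by symbol for 5 of the 7 genes, Sp1, Sp2, Sp3, Sp4 and Sp5. The letters GGGCGG were searched on both strands, with overlapping matches counted. Of 32851 windows, 35.7% hold at least 1 such match and 5.49% hold 4 or more. The 4 windows below were picked to contrast Sp1, Sp3 and Sp4 with Sp5, and the windows of Sp2 are not shown. Capitals mark the matches, which read CCGCCC where the box lies on the other strand. The windows shown are Sp1 at chr15:102406066-102406365 (plus strand), the Sp3 window at chr2:72979232-72979531 (minus strand), Sp4 at chr12:118301391-118301690 (minus strand) and Sp5 at chr2:70474673-70474972 (plus strand).
Sp1: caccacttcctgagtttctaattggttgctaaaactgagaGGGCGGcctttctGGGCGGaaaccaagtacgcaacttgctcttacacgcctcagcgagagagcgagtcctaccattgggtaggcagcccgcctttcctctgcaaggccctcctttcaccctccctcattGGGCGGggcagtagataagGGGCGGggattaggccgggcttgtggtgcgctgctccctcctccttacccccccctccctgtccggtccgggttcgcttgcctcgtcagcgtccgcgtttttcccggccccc
Sp3: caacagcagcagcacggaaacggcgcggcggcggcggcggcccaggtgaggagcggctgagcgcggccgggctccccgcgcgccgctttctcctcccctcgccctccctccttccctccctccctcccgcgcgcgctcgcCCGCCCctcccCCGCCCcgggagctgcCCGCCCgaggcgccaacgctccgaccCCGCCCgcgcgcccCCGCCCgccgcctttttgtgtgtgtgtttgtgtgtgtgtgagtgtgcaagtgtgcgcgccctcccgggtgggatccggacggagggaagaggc
Sp4: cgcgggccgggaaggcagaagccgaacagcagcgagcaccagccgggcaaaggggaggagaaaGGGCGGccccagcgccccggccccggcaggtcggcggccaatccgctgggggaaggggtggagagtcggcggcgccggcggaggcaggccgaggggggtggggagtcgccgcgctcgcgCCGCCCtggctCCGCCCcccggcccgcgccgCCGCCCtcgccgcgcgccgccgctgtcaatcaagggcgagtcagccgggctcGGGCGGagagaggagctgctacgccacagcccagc
Sp5: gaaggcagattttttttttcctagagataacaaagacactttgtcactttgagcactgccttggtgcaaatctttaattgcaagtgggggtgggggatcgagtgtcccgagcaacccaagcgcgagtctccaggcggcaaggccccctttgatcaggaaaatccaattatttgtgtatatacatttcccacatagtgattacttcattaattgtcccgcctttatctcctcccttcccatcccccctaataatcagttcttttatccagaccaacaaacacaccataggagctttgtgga
The Sp1 window holds 4 matches, those of Sp3 and Sp4 hold 5 each, and that of Sp5 holds 0. The other Sp3 window holds 2 matches, and the 3 windows of Sp2 hold 0, 0 and 2. G and C make up 61.7% of the Sp1 window, 76.3% of the Sp3 window and 78.7% of the Sp4 window, but 45.0% of the Sp5 window, against a median of 52.7% over all windows. These are matches of letters in a fixed window and not measured binding sites.

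The arrays as a whole bear on every value below. The median intensity was 150 on each array, and the lowest value lay between 33.2 and 36.7. As a measure of background, the 5 female samples, which have no Y chromosome, read 33.9 to 58.2 on 9 probe sets for Uty, Kdm5d and Eif2s3y. The targeted gene matched the labels: the brightest Hmga2 probe set read 85.7 to 104 without Hmga2 and 9998 to 12799.9 in wild type. Its Hmga2 KO values lie above the background range, so a value above that range does not by itself show expression. In all 7 samples, 6 of 8 endothelial and 5 of 8 leukocyte markers also lay above it. All 10 myoblast markers, among them Pax7, Myod1 and Myog, lay above the background range in all 7 samples. The median difference between Hmga2 KO and wild type was -0.05 on the log2 scale over all probe sets and -0.07 over 18193 genes, each represented by its brightest probe set.

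**Figure D1:**
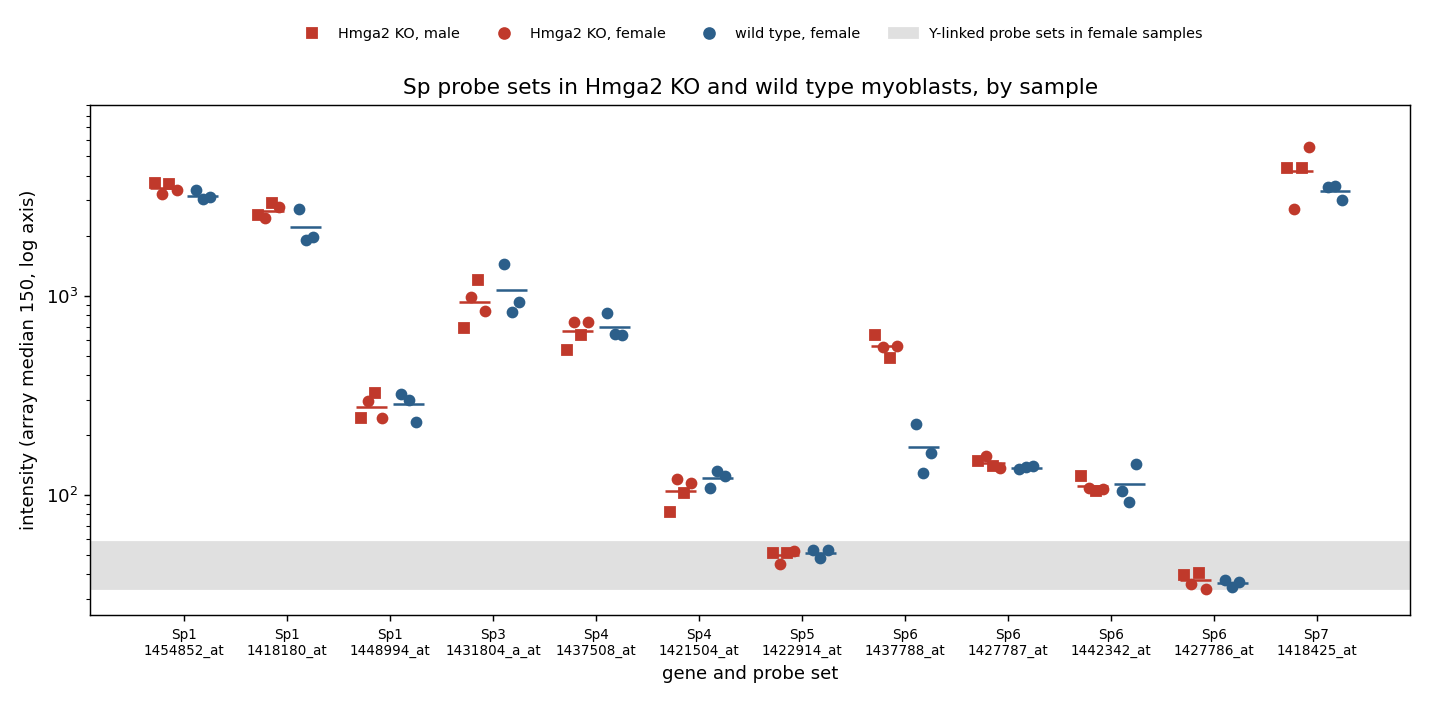
Intensity (log axis, array median 150) of the 12 Sp probe sets in each sample, with Hmga2 KO in red on the left and wild type in blue on the right of each pair, males as squares, females as circles and group means as lines. The grey band is the range of Y-linked probe sets in females. The first Sp6 probe set is at 487 to 635 in Hmga2 KO and at 129 to 228 in wild type, and in each of the other 11 the groups overlap.

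Of the 12 probe sets, 10 lay above the background range in all 7 samples, and these represent Sp1, Sp3, Sp4, Sp6 and Sp7. Sp5 lay inside the range in every sample, as did the dimmest Sp6 probe set. The dimmer Sp4 probe set and the Sp6 probe sets 1427787_at and 1442342_at read only 82.2 to 158. The brightest Hmga2 probe set read 85.7 to 104 in Hmga2 KO, so whether these dim probe sets detect their genes is not settled. The groups were apart, with every Hmga2 KO sample above every wild type sample, for 1 of the 12, a probe set of Sp6. Over all 45037 probe sets the groups did not overlap for 10.5%, and for 2.77% with Hmga2 KO above wild type. Among the 12, 6 had a higher and 6 a lower mean log2 value in Hmga2 KO, and the 11 other than that Sp6 probe set differed by between -0.22 and 0.30, with a median of -0.01. The count of probe sets with groups apart was 4 without wild type replicate 1, which added 2 of Sp1 and the dimmer one of Sp4. It was 3 without Hmga2 KO replicate 2, which added 1 of Sp1 and Sp7, and 2 without wild type replicate 2, which added Sp5. With fewer samples groups separate more often: over all probe sets the share was 25.1%, 20.5% and 21.3% in these 3 settings, in the order given.

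Sp6, the epithelial member of the family, was the one with the widest gap between the groups. Its brightest probe set (1437788_at) read 635, 553, 487 and 558 in Hmga2 KO replicates 1 to 4, against 228, 129 and 163 in the wild type samples. All 4 Hmga2 KO samples were thus above all 3 wild type samples, and the lowest Hmga2 KO value was 2.14 times the highest wild type value. The mean intensity was 558 ± 60.5 in Hmga2 KO (SD, n = 4) and 173 ± 49.9 in wild type (SD, n = 3). On the log2(intensity + 1) scale these were 9.12 ± 0.16 and 7.41 ± 0.41, a difference of 1.71 (SE 0.18) or 3.28-fold. Each SE, here and below, comes from the limma fit, which moderates the spread over all features, whereas each SD is that of the samples alone. The spread was wider in wild type, where replicate 1 was the highest. The difference was 1.71 in the 5 females as well, and it lay between 1.52 and 1.93 when each sample was left out in turn.

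The other 3 Sp6 probe sets did not show this gap. Probe set 1427787_at read 148, 158, 139.5 and 137 in Hmga2 KO, against 135, 138 and 139.9 in wild type. Probe set 1442342_at read 124.5, 108, 104 and 107 in Hmga2 KO, against 105, 92.4 and 143 in wild type. Both lay above the background range but were dim, with groups that overlapped, and whether they detect Sp6 is not settled. Probe set 1427786_at read 39.9, 36.0, 40.6 and 33.9 in Hmga2 KO, against 37.3, 34.8 and 36.8 in wild type, all within the background range. The differences of the 3 were 0.08, -0.01 and 0.05 on the log2 scale. Over the 7 samples the brightest probe set correlated with them at Pearson r of 0.50, 0.05 and 0.32, a description of probe sets that share the same arrays. The sources used here do not say which part of the Sp6 transcript each probe set reads. In the RefSeq gene table the long non-coding RNA gene Gm11532 overlaps Sp6 on chromosome 11. The deposited values do not show which of the overlapping transcripts a probe set measured.

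**Figure D2:**
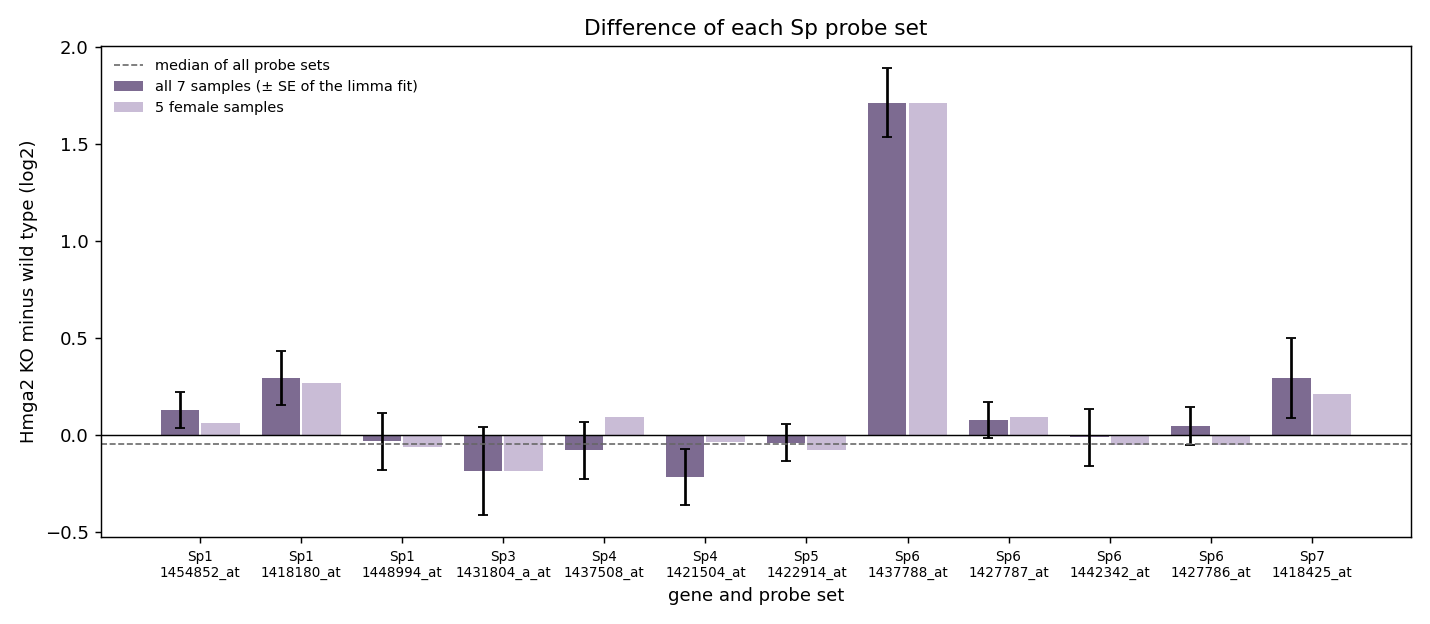
Hmga2 KO minus wild type on the log2 scale for the 12 Sp probe sets, in all 7 samples (dark bars, with the SE of the limma fit) and in the 5 females (light bars). The dashed line is the median of all probe sets, -0.05. The brightest Sp6 probe set stands at 1.71 in both, and the others lie between -0.22 and 0.30 in all samples.

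Sp7, the factor of bone-forming cells, read well above background in these myoblasts. Its only probe set gave 4348, 2719, 4344 and 5533 in Hmga2 KO replicates 1 to 4, against 3513, 3553 and 3017 in wild type. The Hmga2 KO samples held both the highest and the lowest value, so that wild type lay inside their range. The mean intensity was 4236 ± 1156 in Hmga2 KO (SD, n = 4) and 3361 ± 299 in wild type (SD, n = 3). The log2 difference of 0.29 (SE 0.21) was smaller than the SD of 0.43 among the Hmga2 KO samples. Hmga2 KO replicates 2 and 4, both female, were its lowest and highest samples.

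Sp1, the founding member and a general activator at GC boxes, was measured by 3 probe sets. The brightest read 3654, 3249.9, 3616 and 3386 in Hmga2 KO, against 3377, 3039 and 3112 in wild type, a log2 difference of 0.13 (SE 0.093). The next read 2536, 2462, 2899 and 2777 in Hmga2 KO, against 2724, 1901 and 1973 in wild type, a difference of 0.30 (SE 0.14). In both, wild type replicate 1 lay within the Hmga2 KO range and the other wild type samples below it. The dimmest Sp1 probe set read 233 to 325 over all samples, with a difference of -0.03. It correlated with the brightest at Pearson r = 0.08 over the 7 samples, whereas the brighter pair correlated at 0.83.

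Sp3, which competes with Sp1 for the same boxes and can activate or repress, had 1 probe set. It read 685, 987, 1201 and 840.4 in Hmga2 KO, against 1443, 826 and 929 in wild type. The groups overlapped, and the log2 difference of -0.19 (SE 0.23) was below the SDs of 0.34 in Hmga2 KO and 0.42 in wild type. Without wild type replicate 1 the difference was 0.05, so its sign rested on that sample.

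Sp4, the member best known from neurons, had 2 probe sets. The brighter read 532, 742, 638 and 739 in Hmga2 KO, against 817, 643 and 635 in wild type, a log2 difference of -0.08 (SE 0.15) that was 0.09 in the females alone. The dimmer read 82.2, 121, 103 and 115 in Hmga2 KO, against 108, 132 and 124 in wild type, a difference of -0.22 (SE 0.14) that was -0.04 in the females alone. In both probe sets the 2 male Hmga2 KO samples were the lowest of their group. Sp5, the Wnt target, read 51.4, 45.0, 51.3 and 52.3 in Hmga2 KO, against 52.8, 48.3 and 53.0 in wild type. These values all lie in the background range, so no level or fold can be given for it.

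Male and female Hmga2 KO samples were then compared, since the choice of the family did not use this contrast. In a limma fit of 3 groups over all 45037 probe sets, 0 of the 12 Sp probe sets passed an adjusted p of 0.05, where 0.0511% of all probe sets did. At an unadjusted p under 0.05 there was 1 of 12, against 5.32% of all probe sets. That one was the dimmer Sp4 probe set, with a mean log2 value of 6.54 in males and 6.90 in females (male minus female -0.36, SE 0.16, unadjusted p = 0.0495, adjusted p = 0.937, limma). The brighter Sp4 probe set had 9.19 in males and 9.53 in females (adjusted p = 0.971, limma). For the brightest Sp6 probe set both means were 9.12, with a difference of 0.0022 (SE 0.24, adjusted p = 1.0, limma). For Sp7 the mean was 12.09 in males and 11.92 in females, a difference of 0.16 (SE 0.28). With 2 samples of each sex, a p that misses the threshold does not show that the sexes are alike.

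Other genes were compared between Hmga2 KO and wild type in a limma fit over 18193 genes, in which 0.0275% of genes passed an adjusted p of 0.05, 13.3% had an unadjusted p under 0.05 and the groups did not overlap for 11.7%. The counts for markers, relatives and target genes below are read against these shares, and no gene of those lists passed the adjusted threshold.

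Markers of other cell types were set beside the Sp6 values, because the samples are bulk cultures, in which fewer cells of a type and less RNA per cell cannot be told apart. The summed intensity of 11 measured fibroblast markers was 14428 to 16598 in Hmga2 KO and 12741 to 13521 in wild type, so that it did not overlap. Most of this sum came from Col3a1 and Mgp. Sums of other lists below were also apart, but lower in Hmga2 KO. They were 160758 to 166254 in Hmga2 KO and 174618 to 181531 in wild type for genes with GC boxes. For the neighbours of Sp6 they were 36413 to 39833 in Hmga2 KO and 40474.5 to 41363.5 in wild type. By limma 3 of the 11 fibroblast markers had an unadjusted p under 0.05, all higher in Hmga2 KO. For 2 of these, Mgp and Smoc2, the groups did not overlap. The markers named here, other than the dimmest and the brightest, were named after their values were seen. Mgp, a matrix protein, averaged 4581 in Hmga2 KO and 2749.9 in wild type, and Smoc2 averaged 335 in Hmga2 KO and 95.9 in wild type. Dcn, decorin, averaged 73.6 in Hmga2 KO and 58.6 in wild type, and it was above the background range in 5 of 7 samples. The fibroblast list held both directions, with mean log2 values lower in Hmga2 KO for Col1a1 (-0.71), Fbln1 (-0.21) and Thy1 (-0.11), none with an unadjusted p under 0.05. The dimmest marker, Dpt, averaged 48.5 in Hmga2 KO and 47.5 in wild type, and the brightest, the collagen gene Col3a1, 8314 and 7683. In all 7 samples, 7 of the 11 lay above the background range. The part of fibroblast markers in the Sp6 difference was not tested.

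The summed myoblast markers were 69308 to 88437 in Hmga2 KO and 83621 to 86551 in wild type, with a median log2 difference of -0.17 over the 10 genes. Of these, 1 had an unadjusted p under 0.05 and the groups were apart for 2, Vcam1 (-0.23, adjusted p = 0.339, limma) and Mef2c (-0.41, adjusted p = 0.419, limma), both lower in every Hmga2 KO sample. The myoblast list held both directions. Myf5 (0.64), Ncam1 (0.11) and Pax7 (0.10) had higher mean log2 values in Hmga2 KO, and the rest of the list lower ones. None of the higher ones had an unadjusted p under 0.05 by limma. Myf5 and Ncam1 were named after their values were seen. Of the 23 measured genes of tooth and surface epithelium, where Sp6 is best known, the sums overlapped, at 19683 to 23578 in Hmga2 KO and 21299 to 23159 in wild type. Most of these sums came from Rock1 and Fst, named after their values were seen. Rock1 averaged 8344 in Hmga2 KO and 7906 in wild type, and Fst 8533 and 9474. The sums thus say little about the dim members of the list, such as Cdh1 at 76.8 and 92.9. Endothelial sums were 707 to 852 in Hmga2 KO and 825 to 898 in wild type, and leukocyte sums 624 to 668 in Hmga2 KO and 613 to 678 in wild type, with no unadjusted p under 0.05 in either list. Smooth muscle and pericyte sums were 24261 to 33162 in Hmga2 KO and 23069.6 to 33729 in wild type, with 1 of 8 at an unadjusted p under 0.05. That was the pericyte marker Rgs5, which read 9508, 10109.7, 11000.8 and 5946 in Hmga2 KO, against 3078, 6701 and 949 in wild type. The Rgs5 groups overlapped through Hmga2 KO replicate 4 and wild type replicate 2, and the log2 difference of 1.72 (SE 0.55, adjusted p = 0.295, limma) was about that of Sp6 with a wider error. The rest of that list did not share this difference, and the list median was -0.01. Its other genes lay between -0.33 (Des) and 0.39 (Cnn1, 0.04 in the females alone). The pericyte markers Cspg4 and Pdgfrb differed by 0.02 and -0.03. These genes were named after their values were seen. The part of myoblast and pericyte markers in the Sp6 difference was not tested either.

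The Klf factors are the nearest relatives of the Sp factors and bind similar boxes. Of 16 measured Klf genes, each by its brightest probe set, 1 had an unadjusted p under 0.05, and the groups overlapped in all 16. Over all 46 Klf probe sets the groups were apart for 1, a dim one of Klf3, against 10.5% of all probe sets. The median difference was 0.07 on the log2 scale, and 12 of the 16 lay above the median of all genes. Klf10, induced by TGF-beta, had mean log2 values of 13.58 in Hmga2 KO and 13.50 in wild type. Klf6 had 13.19 and 13.09, and Klf3, known in muscle, 11.93 and 11.87, in Hmga2 KO and wild type. Over all probe sets of a gene the log2 difference ran from -0.13 to 0.39 for Klf3 and from 0.10 to 0.35 for Klf6. The gene with the unadjusted p under 0.05, named after its value was seen, was Klf7, with 10.48 in Hmga2 KO and 10.12 in wild type (adjusted p = 0.369, limma). Klf7 read 1829.6 and 1525 in male Hmga2 KO and 1199 and 1229.5 in female Hmga2 KO, against 1023 to 1204 in wild type, so its females overlapped with wild type. The widest difference of the list was in the other direction, for Klf5, with 8.84 in Hmga2 KO and 9.49 in wild type (-0.65, adjusted p = 0.375, limma), also named after its value was seen.

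A paralogue measured outside the members, Sp8, a factor of limb and brain development, read 46.1, 52.0, 47.2 and 45.7 in Hmga2 KO, against 52.9, 52.7 and 54.9 in wild type. The groups did not overlap, but all values lie in the background range (adjusted p = 0.446, limma). Of the Egr factors and Wt1, whose fingers also read GC-rich DNA, none of 5 had an unadjusted p under 0.05. Egr1, an immediate early gene, had mean log2 values of 13.46 in Hmga2 KO and 13.21 in wild type (adjusted p = 0.450, limma).

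Cofactors and modifying enzymes of the Sp factors were above background in all samples for all 29 measured genes. Their median difference was -0.03, and 3 had an unadjusted p under 0.05. Sin3a, a corepressor scaffold, read 503, 589, 549 and 526 in Hmga2 KO, against 707, 689 and 665 in wild type (log2 difference -0.34, adjusted p = 0.267, limma). Ep300, an acetyltransferase and coactivator, read 3441, 3536, 4129 and 3503 in Hmga2 KO, against 3172, 3071 and 2779 in wild type (difference 0.28, adjusted p = 0.319, limma). The groups were apart for 4 of the 29, with Ep300 and Atf7ip higher and Sin3a and Oga lower in every Hmga2 KO sample, of which Oga was named after its value was seen. E2f1, a cell cycle factor that binds Sp1, had mean log2 values of 10.39 and 10.67, and Atf7ip, a chromatin cofactor, 11.15 and 10.98, in Hmga2 KO and wild type.

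Genes with GC boxes and a textbook tie to Sp1 made up the next list, of which 43 were measured. Their median difference was -0.14, below the -0.07 of all genes, and 15 of the 43 lay above that median. At an unadjusted p under 0.05 there were 7, of which 1 was higher and 6 lower in Hmga2 KO. The one that was higher was Cdkn2b, an inhibitor of G1 kinases, with 2312, 1526, 2062 and 1669.99 in Hmga2 KO, against 1053, 937 and 1172 in wild type (log2 difference 0.83, adjusted p = 0.194, limma). Ccne1, cyclin E1, had the opposite order, with 1413, 1287, 1021 and 1165 in Hmga2 KO, against 1738, 1636 and 1931 in wild type (difference -0.54, adjusted p = 0.227, limma). Aldoa, a glycolytic enzyme, had mean log2 values of 13.46 in Hmga2 KO and 13.74 in wild type. The groups were apart for 4 of the 43, with Cdkn2b higher and Ccne1, Aldoa and Hprt lower in every Hmga2 KO sample, of which Hprt was named after its value was seen.

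**Figure D3:**
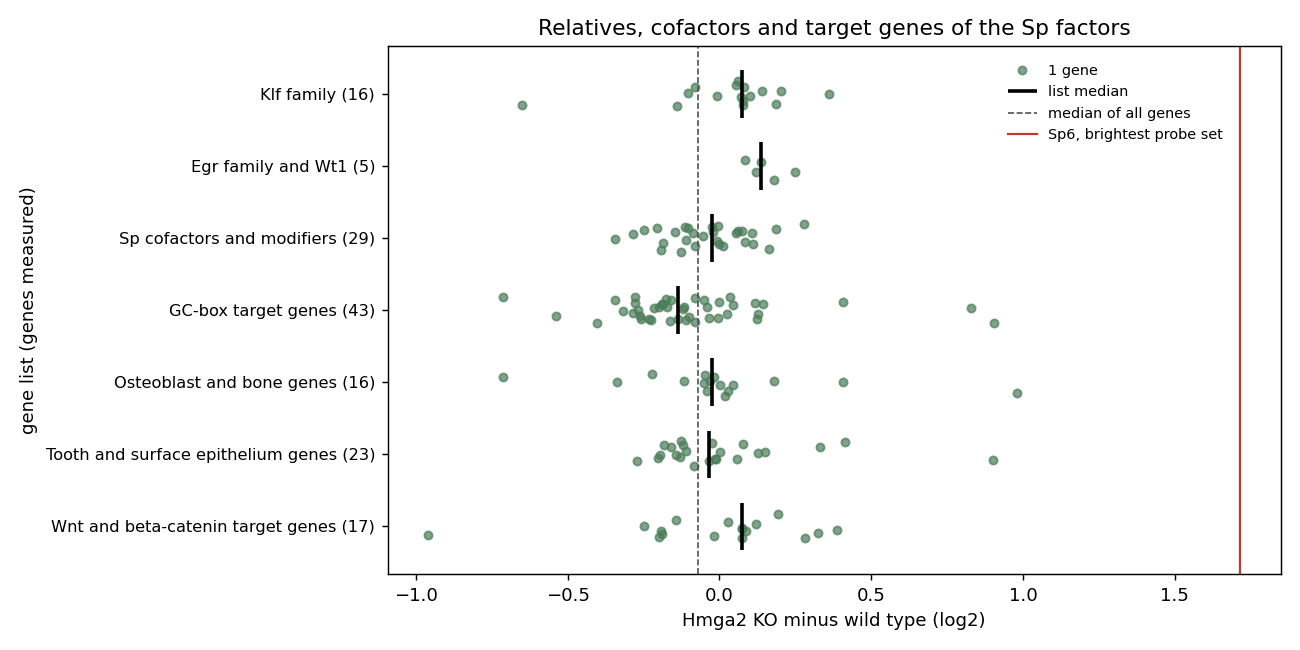
Hmga2 KO minus wild type on the log2 scale for each measured gene (points) of 7 lists tied to the Sp factors, with each list's median as a black line. The dashed line is the median of all genes, -0.07, and the red line the brightest Sp6 probe set, 1.71. The list medians lie between -0.14 and 0.14.

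Lists that follow the roles of single members were described in the same way. Of 16 measured osteoblast and bone genes, the setting of Sp7, 11 lay above background in all samples and 1 had an unadjusted p under 0.05. This was Sost, an inhibitor of Wnt signalling made by osteocytes, with 606, 963, 574 and 1047 in Hmga2 KO, against 336, 623 and 283 in wild type. Its groups overlapped through wild type replicate 2 (log2 difference 0.98, adjusted p = 0.293, limma). The difference of Sost was 1.36 in the females alone. Dmp1, a matrix protein of bone and dentin that was named after its level was seen, read 3921 to 5912 in Hmga2 KO and 3839 to 5783 in wild type. Alpl, the alkaline phosphatase of bone, had means of 88.5 in Hmga2 KO and 77.5 in wild type. The brightest Hmga2 probe set read 85.7 to 104 in Hmga2 KO, so whether Alpl and other dim bone genes are detected is not settled. Phex and Dlx6 had mean log2 values of 7.61 and 6.26 in Hmga2 KO, against 7.95 and 6.48 in wild type.

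For Sp6, 17 of the 23 measured tooth and surface epithelium genes lay above background in all samples, and 1 had an unadjusted p under 0.05. That was Msx2, a homeobox factor, with mean log2 values of 7.65 in Hmga2 KO and 7.24 in wild type (adjusted p = 0.351, limma). Its male Hmga2 KO samples read 239 and 241 and its females 168 and 165, against 129.8 to 168 in wild type. Perp, a desmosome protein, had 8.60 in Hmga2 KO and 7.70 in wild type (adjusted p = 0.393, limma). Cdh1, the epithelial cadherin, had 6.27 in Hmga2 KO and 6.55 in wild type. The brightest Hmga2 probe set had 6.59 in Hmga2 KO, so whether Cdh1 and other dim genes of this list are detected is not settled. Klk4, an enamel protease, lay in the background range in all samples. For Sp5, 17 Wnt target genes were measured, with a median difference of 0.07 and 1 at an unadjusted p under 0.05. That was Tnfrsf19, a receptor, with 8.74 in Hmga2 KO and 9.70 in wild type (adjusted p = 0.294, limma). Wif1 had 6.31 in Hmga2 KO and 6.12 in wild type. Lgr5 was above the background range in 2 of 7 samples, both male Hmga2 KO, and Rnf43 in none. Within the 5 females the difference between Hmga2 KO and wild type was -0.58 for Tnfrsf19, 0.02 for Lgr5, 0.15 for Msx2, 0.66 for Perp, 0.25 for Dmp1, 0.60 for Cdkn2b, 0.13 for Klf7 and -0.36 for Klf5, against -0.96, 0.39, 0.41, 0.90, 0.03, 0.83, 0.36 and -0.65 in all samples. Of the markers named above it was -0.06 for Mef2c, 0.86 for Myf5, -1.96 for Col1a1, -0.46 for Fbln1 and 0.23 for Dpt in the females.

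The genes beside Sp6, which include genes of the Hoxb cluster, were compared in the same fit. In the RefSeq table Sp6 and Sp2 lie on chromosome 11, Sp1 and Sp7 on chromosome 15, Sp3 and Sp5 on chromosome 2, and Sp4 on chromosome 12. Of the 10 measured genes on each side of Sp6, 0 passed by limma. An unadjusted p under 0.05 was found for 2, both lower in Hmga2 KO, against 13.3% of all genes. The groups were apart for 1, against 11.7% of all genes. The nearest on each side were Prr15l, with a difference of -0.22 (SE 0.13), and Scrn2, with -0.02 (SE 0.095). Copz2, a coatomer subunit 3 measured genes away, read 381, 608, 487 and 492 in Hmga2 KO, against 672, 817 and 734 in wild type. It was lower in each Hmga2 KO sample than in any wild type sample (log2 difference -0.60, adjusted p = 0.258, limma), opposite to Sp6. Hoxb2, the farthest of the 10 on the same side as Copz2 and named after its value was seen, had a difference of 1.06 with an SE of 0.77, groups that overlapped and a difference of 0.28 in the females. The median difference of the 20 neighbours was -0.10. Around the other members, those with an unadjusted p under 0.05 were 0 of 20 neighbours for Sp1, 7 of 20 for Sp3, 4 of 14 for Sp4, 2 of 20 for Sp5 and 1 of 20 for Sp7, against the same 13.3%, and none passed by limma. Lower in Hmga2 KO were 6 of the 7 around Sp3, 3 of the 4 around Sp4 and the 2 around Sp5, and the 1 around Sp7 was higher. The neighbours of Sp1 and of Sp7 had the same median (-0.0034) and the same lowest difference (-0.217), so they appear to share genes.

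**Figure D4:**
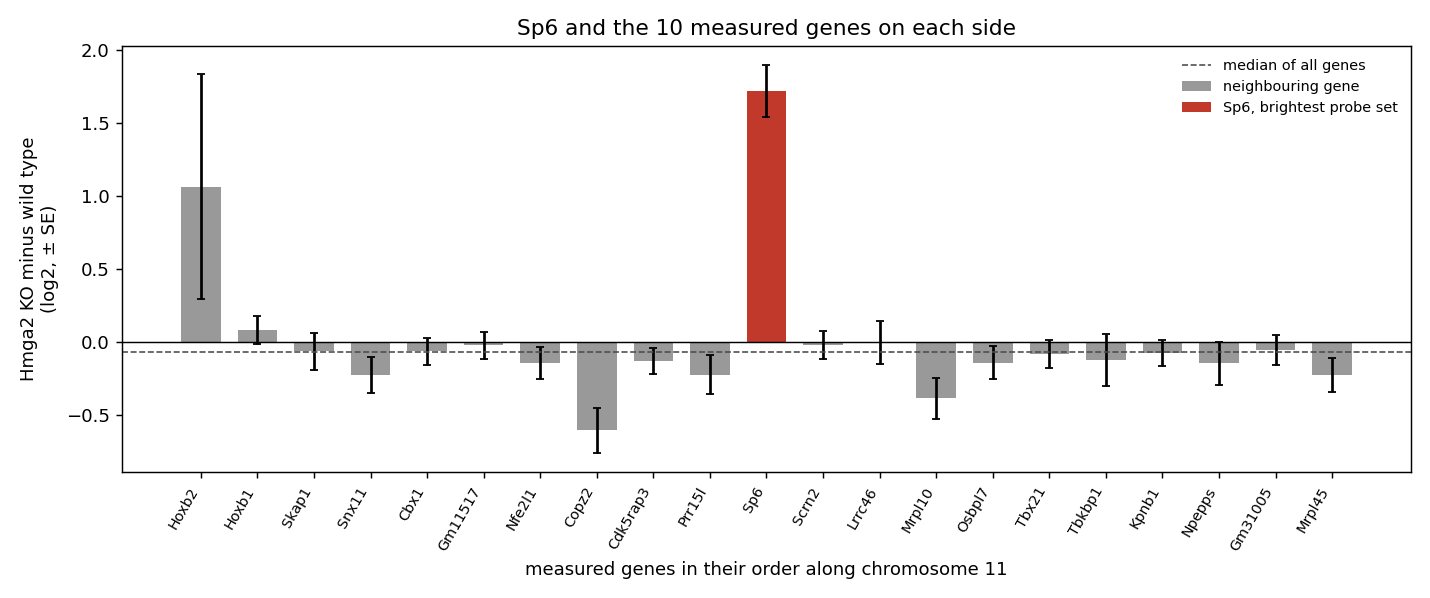
Hmga2 KO minus wild type on the log2 scale (bars, with SE) for the brightest Sp6 probe set in red and the 10 measured genes on each side of it in grey, in their order along chromosome 11. The dashed line is the median of all genes, -0.07. Sp6 stands at 1.71 between Prr15l at -0.22 and Scrn2 at -0.02.

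The genes whose levels most resembled Sp6 were found by Pearson correlation of log2 values over the 7 samples, among 10912 genes outside the dimmest 40%. Because the samples share a genotype split, this measure favours genes with a gap between the groups, and it is given as a description. The 5 most alike were Ahi1 (0.998), 4933412E12Rik (0.979), Sulf2 (0.975), Arfgef2 (0.974) and Gclm (0.958). Ahi1, a gene of the primary cilium, read 2577, 2471, 2308 and 2418 in Hmga2 KO, against 1881, 1564 and 1714 in wild type, and in both genes replicate 1 was the highest and replicate 3 the lowest of the Hmga2 KO samples. Its log2 difference was 0.51, less than that of Sp6. The 5 most opposite were Gatb (-0.994), Fhod3 (-0.989), Lamtor4 (-0.980), Tinf2 (-0.978) and Mul1 (-0.973). Gatb, a subunit of a mitochondrial amidotransferase, read 238, 258, 264 and 248 in Hmga2 KO, against 315, 395 and 357 in wild type. Arfgef2 and, among the cofactors, Atf7ip were lower in Hmga2 KO on their most variable probe set, with log2 differences of -0.15 and -0.26. None of these 10 correlated genes passed an adjusted p of 0.05 in the limma fit. Within the family, the same measure was 0.78 for Sp1, 0.44 for Sp7, -0.11 for Sp4 and -0.18 for Sp3.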

How the data were processed

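The authors deposited linear intensities of 45101 probe sets, with a median of 150 on each array. Labelling followed Affymetrix cRNA methods, per the labels' protocols. How probe sets were summarized and scaled is not stated in the sources used here. Intensities were taken to log2(intensity + 1) without further normalization. Folds are on that scale, and folds of dim genes are understated. Names came from the platform annotation. Of 45037 non-control probe sets, 34945 had 1 gene, 932 several and 9160 none. Groups, taken from the titles, were compared with limma 3.58.1 (lmFit, eBayes) under R 4.3.3, over all probe sets or over 18193 genes (brightest probe set by mean), with Benjamini-Hochberg adjustment, a threshold of 0.05 and no covariate. P-values set a difference of group means against the spread within groups, which limma moderates over all features. The number of arrays limits precision. In the fit of Hmga2 KO against wild type, the spread within Hmga2 KO also includes differences between the sexes. The script was tested on simulated data.

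The members and lists were chosen with earlier results of these data known. The genes named are every Sp probe set, relatives that do not overlap between groups or are among the brightest 4, up to 4 genes with the smallest p of each list, the lowest and highest marker of the fibroblast list, neighbours of Sp6 that do not overlap or are nearest, and the 5 genes most like and 5 most opposite to Sp6. RefSeq tables of GRCm38.p6 gave names, gene order and promoter windows.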

Additional observations from a re-analysis of the deposited data

Results flagged for a closer look

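In the 4 Hmga2 KO samples, the highest and lowest value of each of the 12 Sp probe sets and of 38 named genes was set against the gap to its nearest neighbour (Dixon's test), which by chance singles out about 1 group in 20. It singled out 2 of the 50. Sp5 read 45.0 in Hmga2 KO replicate 2, whereas the remaining 3 read 51.3 to 52.3, all in the background range. Ep300 read 4129 in Hmga2 KO replicate 3, whereas the remaining 3 read 3441 to 3536.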

How the results depend on the processing

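Results were recomputed with quantile normalization, equal medians, a pseudocount of 16, the dimmest 40% left out, array weights, a trended and robust prior, a sex covariate, females only, a replicate block, 1 sample left out, and, for genes, another choice of probe set. The difference of the brightest Sp6 probe set kept its sign and stayed within 1 SD of 1.71 in all 14 of its alternatives, from 1.52 to 1.93 when a sample was left out. Some of the 14 are repeats by design. Leaving out dim probe sets returns the main difference, the sex covariate that of the females only, and the replicate block that without Hmga2 KO replicate 4. The counts of sign changes below hold the same repeats, and the 2 of 13 for 1427786_at are 1 value. Leaving out 1 sample gave 2 to 17 genes and 4 to 34 probe sets past the threshold over the whole array, against 5 and 8. Genes numbered 3 without wild type replicate 1 or Hmga2 KO replicate 3, 2 without wild type replicate 3 and 17 without Hmga2 KO replicate 2. Probe sets numbered 5, 4 and 34 without wild type replicate 1, wild type replicate 3 and Hmga2 KO replicate 2. The number of Sp probe sets with groups apart was 1 to 4. With the replicate block, 99 genes and 84 probe sets passed, and 1 gene each of the GC-box, bone and Wnt lists, namely Cdkn2b (adjusted p = 0.0381, limma), Sost (adjusted p = 0.0428) and Tnfrsf19 (adjusted p = 0.0353). Fhod3 passed too (adjusted p = 0.0353, limma). Replicate 4 exists only in Hmga2 KO, so with the block that sample adds nothing to the difference between the genotypes. The labels do not tie the replicate numbers to a shared litter or day. They also number 1 Hmga2 KO sample as 3 in 1 place and as 4 in another, and the numbers of the titles were used. Deviations from the group means of same-numbered samples correlated at 0.31, 0.37 and -0.18 for replicates 1, 2 and 3. Whether same-numbered samples share more than a number was not tested. A trended prior gave 13 probe sets. In every other alternative run, the counts past the threshold for the lists, the neighbours of Sp6 and the Sp probe sets between the sexes were 0 by limma. The sign changed for 6 of the other 11 Sp probe sets, in 6 of 14 alternatives for the dimmest of Sp1, 5 of 14 for the brighter of Sp4, 4 of 14 and 2 of 13 for the dimmer ones of Sp6 (1442342_at and 1427786_at), 2 of 13 for Sp5 and 1 of 14 for Sp3. Among named genes that did not pass, it turned for Klf3 when samples were left out (-0.0078 to 0.126) and for Scrn2 likewise (-0.0615 to 0.0253), with quantile normalization (0.0417), with the mean of a gene's probe sets (0.0465) and with the most variable one (0.116). With those choices of probe set it also turned for Atf7ip (-0.0176 and -0.262) and Arfgef2 (-0.0238 and -0.146). The causes were not tested. Dim values near the floor limit what Sp5, Sp8, the dimmer Sp4 probe set and the dimmer Sp6 probe sets can show.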
